A study of Mus musculus with 12 samples.

Results

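Light zone (LZ) germinal center B cells called in the G1 phase of the cell cycle made up 1168 of the 6000 lymph node B lineage cells in the deposited matrix. They were the cells annotated LZ by the authors and called G1 by them, outside the authors' clusters 4, 5 and 7. Of 2213 LZ cells, 1235 were called G1, and 62 cells of cluster 4 and 5 cells of cluster 5 were left out. Mouse 1 gave 294 of its 1491 cells, mouse 2 gave 339 of 2079 and mouse 3 gave 535 of 2430. Nearly all members, 1157 cells or 99.1%, lay in cluster 0, and none came from the second barcode series of the matrix. They held 6471912 unique molecular identifiers (UMIs), each a count of 1 captured transcript.

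NP-KLH, a carrier protein with a hapten attached, was injected in Sigma Adjuvant System into 3 mice, whose draining lymph nodes were sampled. Tamoxifen was given by gavage, and cells were taken 5 days later, on day 16 of the response, as live IgD-negative cells carrying an eYFP reporter. Genotype, any Cre driver, age and sex are not stated in the sources, and no untreated group was analysed here. Antibody hashtags gave each cell its mouse, and the 12 libraries in 6 groups differ by sorted fraction and library kind, so no library is a replicate here. The groups compared were cells of the same 3 mice, with clusters 4, 5 and 7 left out of each: 1168 LZ G1, 707 LZ S, 198 LZ G2/M and 1074 dark zone (DZ) G1 cells. DZ S (928) and DZ G2/M (872) cells entered the fit and the comparison of zone differences.

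In a germinal center, B cells divide and mutate their antibody genes in the dark zone and move to the light zone, where they take antigen from follicular dendritic cells and present it to T follicular helper cells. Signals through the B cell receptor and CD40 switch on NF-kB, immediate early genes and, in the cells that receive most help, Myc, after which cells re-enter the cycle, return to the dark zone or leave as memory or plasma cells.

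Both labels were drawn from the transcripts themselves. The authors' zone score per cell runs from the light zone (low) to the dark zone (high). Its highest value in LZ G1 was 0.518 and its lowest in DZ G1 was 0.502, 27 LZ G1 and 51 DZ G1 cells lay in the overlap, and 229 LZ G1 cells lay within 0.05 of their upper edge. The state has further edges: the highest memory score in LZ G1 was 0.779, just under the 0.780 at which the authors' preMem state begins, and 77 LZ G1 cells lay within 0.05 below that. The highest activation score was 0.575, with the LZtoDZ state beginning at 0.581, and the highest plasma cell score was 0.224, with prePC beginning at 0.251. Of the cells called G1 elsewhere, 370 were preMem, 17 LZtoDZ and 42 prePC, so levels of memory, Myc-linked and plasma cell genes given here are those of a state from which the highest-scoring cells had been taken. Which genes the zone, phase and memory calls rest on is not given in the sources. A p-value between zones or phases therefore measures how well the 3 mice agree, and counts of zone markers between zones and of cycle genes between phases describe the groups and are no test of them. Between zones the NF-kB, T cell help and antigen capture lists each hold 1 light zone marker (Nfkbia, Cd86 and Fcer2a), which is in their counts.

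The 4 light zone markers were all detected. Cd83, an activation molecule of light zone cells, stood at 642, 543 and 586 CPM (counts scaled to a common library total) in mice 1 to 3 in LZ G1 against 155, 137 and 139 CPM in DZ G1. Fcer2a, the low-affinity IgE receptor CD23, was at 322 ± 7.67 CPM (SD, n = 3) in LZ G1 and 100.3 ± 10.1 CPM in DZ G1. Cd86, a costimulatory ligand for T cells, was at 188 ± 16.6 and 94.8 ± 0.50 CPM, and Nfkbia, the inhibitor that NF-kB itself induces, at 273 ± 16.5 and 85.0 ± 10.6 CPM. No value of the 4 genes overlapped between the zones, and the markers went with the label. The share of all genes whose values did not overlap was not counted, here or below. Cxcr4, the chemokine receptor that holds cells in the dark zone, was at 35.8 ± 4.11 CPM in LZ G1 and 84.4 ± 1.65 CPM in DZ G1. After each cell was thinned to 2000 UMIs, a Cd83 transcript was found in 60.9% ± 2.96 (SD, n = 3) of LZ G1 and 21.9% ± 0.675 of DZ G1 cells, so a share of LZ G1 cells had none at this depth. Germinal center genes were present as well, with Bcl6, the master regulator of the state, at 77.0 ± 2.61 CPM.

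Transcripts of other cell types were scarce. The summed level of the T cell markers was 1.04 to 3.07 CPM over the mice, of NK markers 0 to 0.617 CPM, of stromal markers 0.617 to 1.04 CPM, of myeloid markers 1.04 to 14.2 CPM and of erythroid markers 7.84 to 17.9 CPM. Cells with 2 or more such UMIs made up 1.70%, 0.885% and 0.935% of LZ G1 cells.

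Members of the NF-kB list were higher in these cells than in DZ G1 cells, so the upstream sequence of 4 members of the NF-kB list is shown, chosen for a match to part of a kappa B motif. The 250 bases before the start are given 5′ to 3′ on the gene's strand, from RefSeq on GRCm38.p6, with matches to GGNNTTTCC on either strand in capitals. This motif is the last 9 letters of one form of the kappa B consensus, so sites of other forms stay in lower case. The windows are chr12:55492648-55492897 (minus strand) for Nfkbia, chr9:21015690-21015939 (plus) for Icam1, an adhesion molecule for T cells, chr11:23770970-23771219 (minus) for Rel, the c-Rel subunit, and chr19:46304487-46304736 (plus) for Nfkb2, the p100 subunit.
Nfkbia: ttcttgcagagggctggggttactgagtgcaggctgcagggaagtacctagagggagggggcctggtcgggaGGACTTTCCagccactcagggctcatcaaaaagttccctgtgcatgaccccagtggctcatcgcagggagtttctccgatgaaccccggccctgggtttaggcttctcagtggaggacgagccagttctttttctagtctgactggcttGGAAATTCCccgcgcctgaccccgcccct
Icam1: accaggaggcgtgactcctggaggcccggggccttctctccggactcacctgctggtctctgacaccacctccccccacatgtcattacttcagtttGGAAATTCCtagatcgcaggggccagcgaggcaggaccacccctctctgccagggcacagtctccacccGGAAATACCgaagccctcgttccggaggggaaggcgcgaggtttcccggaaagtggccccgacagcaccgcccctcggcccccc
Rel: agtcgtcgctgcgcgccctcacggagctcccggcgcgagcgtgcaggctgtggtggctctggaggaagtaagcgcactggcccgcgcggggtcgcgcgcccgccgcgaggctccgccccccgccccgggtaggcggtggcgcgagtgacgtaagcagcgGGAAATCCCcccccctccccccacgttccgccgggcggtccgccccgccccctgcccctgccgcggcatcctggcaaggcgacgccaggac
Nfkb2: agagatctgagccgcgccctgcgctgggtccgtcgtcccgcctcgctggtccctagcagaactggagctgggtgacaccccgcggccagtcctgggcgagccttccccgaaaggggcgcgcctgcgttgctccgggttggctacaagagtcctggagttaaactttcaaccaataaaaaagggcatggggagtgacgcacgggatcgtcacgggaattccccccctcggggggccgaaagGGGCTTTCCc
The motif GGNNTTTCC was found before 6 of the 17 NF-kB list genes that have a window in the table (35.3%: Bcl2l1, Icam1, Nfkb2, Nfkbia, Rel and Tnfaip3), and in 5.62% of all 27025 genes with a window. It was found before 1 of 18 immediate early genes (5.56%: Dusp5). The EGR motif GCGTGGGCG, also searched on both strands, was found before 2 of the 17 NF-kB list genes (11.8%: Bcl2a1b and Bcl2a1d, near-identical copies), 0 of 18 immediate early genes and 0.622% of all genes. These are letter matches only, and 2 of the 4 light zone markers, Fcer2a and Nfkbia, had a window. Nfkb2 had further windows that are not printed, of which window 3 also held a match and window 2 did not. All 4 printed genes were called higher in LZ G1 than in DZ G1 in the comparison below, while Tnfaip3, which also has a match, was not. Nfkbid, which was called higher, had no match in any window.

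**Figure D1:**
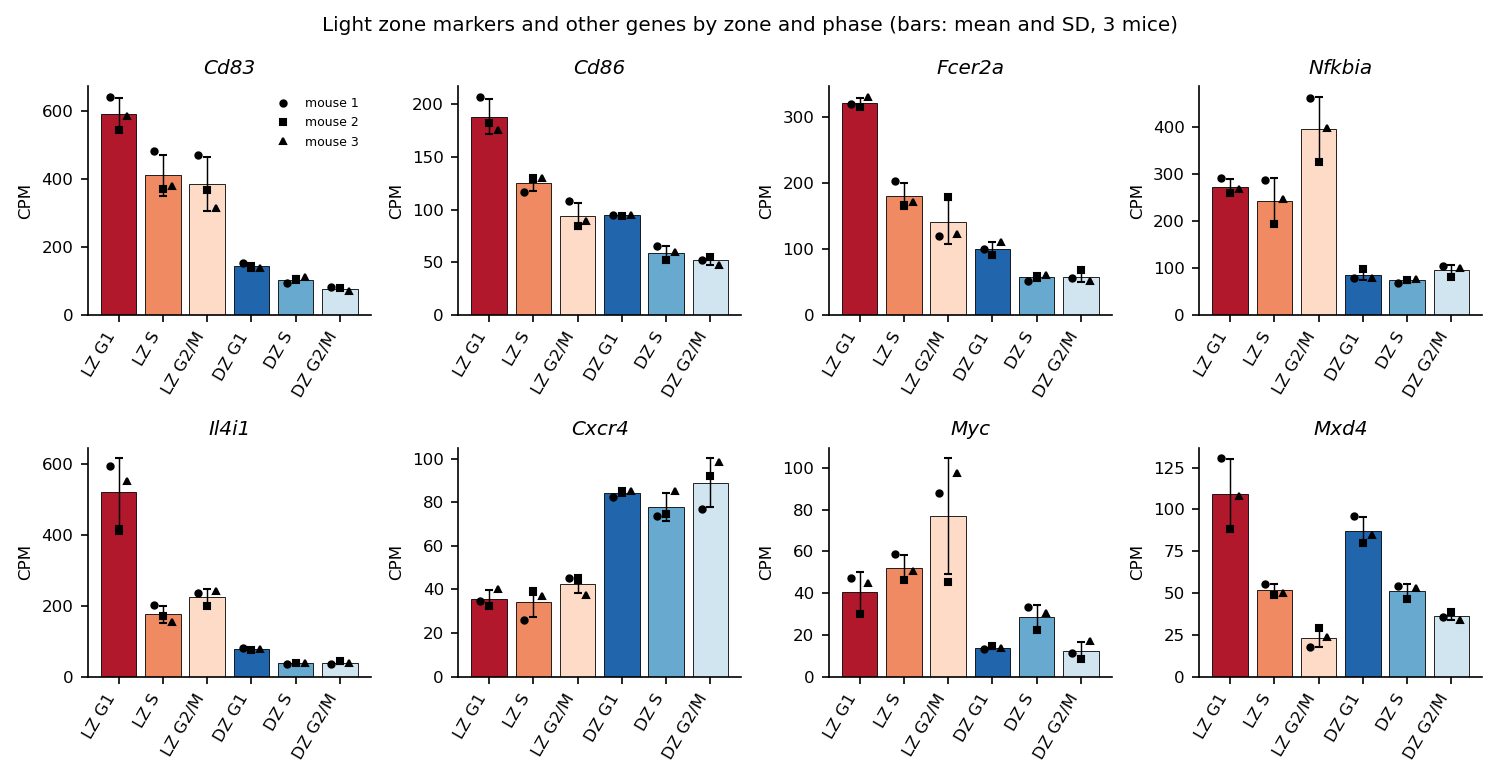
Levels of 8 genes in CPM (vertical axes, from 0) in LZ and DZ cells of each phase; bars are means and error bars SD over 3 mice, and points are single mice. Cd83, Cd86, Fcer2a and Il4i1 are highest in LZ G1, Nfkbia and Myc are highest in LZ G2/M, Cxcr4 is lower in LZ than in DZ cells of every phase, and Mxd4 is highest in LZ G1.

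The first comparison set LZ G1 against cycling LZ cells (the average of LZ S and LZ G2/M). It asked how light zone cells called G1 differ from those called S or G2/M. The groups lay in different clusters: cluster 0 held 1157 of 1168 LZ G1 cells, 159 of 707 LZ S cells and 1 of 198 LZ G2/M cells, while 368 LZ S cells were in cluster 2 and 168 LZ G2/M cells in cluster 1. In LZ G1 1474 (16.2%) of the 9105 genes that could be tested were higher and 1543 (16.9%) lower by edgeR's quasi-likelihood test with mouse as a block. Genes for meeting T cells, presenting antigen and passing on the B cell receptor signal were higher in G1, while the Myc and ribosome biogenesis genes leaned the other way. The cycle lists were lower: 40 of 41 S phase and 50 of 51 G2/M genes, with none higher, and 9 of 12 G1 cyclin and E2F genes, with Ccne1 at 7.51 ± 1.89 CPM against 36.9 ± 2.37. Mki67, a proliferation antigen that persists after division, was at 124 ± 7.12 CPM in LZ G1 and 467 ± 41.2 in cycling LZ cells, and 66.7%, 66.1% and 61.5% of LZ G1 cells held a Mki67 or Top2a transcript. The shares in DZ G1 were 62.4%, 66.3% and 64.8%. Free RNA in the droplets was not measured, so such a transcript, or one of Myc, may not come from the cell it was counted in.

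Among the light zone markers, 3 of 4 were higher in G1 than in cycling LZ cells and 0 lower. Fcer2a was at 319, 316 and 331 CPM in LZ G1, at 204, 167 and 171 in LZ S and at 121, 179 and 123 in LZ G2/M. All 3 mice were higher in G1 than any value of the other phases, and Fcer2a differed by 1.01 ± 0.096 on the log2 scale (SE of the fit, adjusted p = 2.3e-08). Cd86 differed by 0.79 ± 0.079 (adjusted p = 4.6e-08) and Cd83 by 0.59 ± 0.073 (adjusted p = 1.2e-06). Nfkbia did not pass (-0.17 ± 0.092, adjusted p = 0.173), and its level of 462, 325 and 398 CPM in LZ G2/M lay above all G1 values of 260 to 291 CPM. The zone score moved with phase: its median was 0.408 in LZ G1, 0.439 in LZ S and 0.455 in LZ G2/M as means over mice. With LZ cells at or above 0.45 left out, Fcer2a differed by 0.82, Cd86 by 0.81 and Cd83 by 0.47, and all 3 passed, while Nfkbia was lower in G1 (-0.31, adjusted p = 0.00601). In this setting LZ G2/M had no sum for mouse 1, which kept 19 cells there, under the minimum of 20. Nfkbia also passed as lower without mouse 2 (adjusted p = 0.0172) and with immunoglobulin genes left out (adjusted p = 0.0173).

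T cell help receptors and ligands were higher in G1 for 13 of 18 members tested and lower for 0, with a median log2 fold change of 0.60 beside 0.055 over all genes. Icosl, the ligand through which B cells hold T follicular helper cells, was at 71.3 ± 5.10 CPM in LZ G1 and 39.0 ± 4.37 in cycling LZ cells (0.92 ± 0.11, adjusted p = 7e-07). Il21r, the receptor for the helper cytokine IL-21, was at 215 ± 7.14 and 138 ± 20.6 CPM (0.68 ± 0.078, adjusted p = 3.8e-07). Il4ra, the IL-4 receptor chain, was 0.83 ± 0.11 higher (adjusted p = 3.8e-06). Cd40, which receives the central contact signal of helper T cells, was at 120.5, 117 and 151 CPM in LZ G1 (0.37, adjusted p = 0.00603), but without mouse 3, the highest of these, the difference was 0.17 with an adjusted p of 0.348, and with thinned cells it was 0.29 with an adjusted p of 0.176.

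Il4i1, a secreted amino acid oxidase of activated B cells, was among the largest differences outside the cycle lists. Its level was 596, 412 and 554 CPM in LZ G1, 203, 170 and 156 CPM in LZ S, and 236, 200 and 242 CPM in LZ G2/M. The lowest G1 mouse exceeded the highest cycling value, and the log2 fold change was 1.38 ± 0.083 (adjusted p = 1.3e-11).

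MHC class II genes were higher in G1 for 12 of 13 members, with H2-DMb1 the one that did not pass (-0.12 ± 0.13, adjusted p = 0.518). The alpha chain H2-Aa was at 6993 ± 276 CPM in LZ G1 and 5286 ± 295 in cycling LZ cells (0.41 ± 0.025, adjusted p = 1.8e-11). The largest difference of the list was in H2-Oa, a subunit of H2-O, which restrains peptide loading, at 511, 529 and 469 CPM in LZ G1 and 286 ± 33.9 CPM in cycling cells (0.82 ± 0.055, adjusted p = 7.9e-11). Of the MHC class I list 7 of 12 were higher and 0 lower. With no block for the mouse 3 were higher, beside 1418 of 9105 over all genes.

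B cell receptor signalling genes were higher in G1 for 14 of 20 members and lower for 0, with a median of 0.33. Lat2, an adaptor of the receptor complex, was at 338 ± 9.05 CPM against 202 ± 16.7 (0.76 ± 0.071, adjusted p = 1.8e-08), and the kinases Blk and Syk were 0.71 ± 0.063 and 0.69 ± 0.057 higher. Inhibitors of the receptor moved the same way, with 7 of 9 higher and 0 lower. Of these Cd72, a receptor that carries an inhibitory motif, was at 184, 199 and 196 CPM in LZ G1 and 128 ± 31.3 CPM in cycling LZ cells (0.57, adjusted p = 0.00152). In the antigen capture list 4 of 7 were higher, while the complement receptor Cr2 was at 88.3 ± 17.0 CPM in G1 and 86.7 ± 8.65 CPM in cycling cells (0.024, adjusted p = 0.881).

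Myc, the driver of cell growth, was lower in LZ G1 than in cycling LZ cells. It was at 47.1, 29.8 and 44.8 CPM in G1, 58.9, 46.2 and 50.6 in LZ S, and 87.9, 45.5 and 97.4 in LZ G2/M. G1 was the lowest phase within each mouse, although values of different mice overlapped (-0.64 ± 0.14, adjusted p = 9.9e-04). Without G1 cells that held Mki67 or Top2a the difference was -0.43 and did not pass (adjusted p = 0.0809), and with equal cell numbers in every sum it turned to 0.66 (adjusted p = 0.252). Of the Myc and ribosome biogenesis list 6 of 20 were lower, among them the nucleolar genes Nop58 (-0.44 ± 0.060), Ncl (-0.36 ± 0.042) and Npm1 (-0.28 ± 0.052), and 3 were higher, beside 16.9% lower and 16.2% higher over all genes. With clusters 4, 5 and 7 kept, 12 were lower, beside 1664 of 9163 over all genes. Among the 3 higher was Mxd4, which competes with Myc for its partner Max, at 131, 88.5 and 108 CPM in G1, 55.6, 48.7 and 50.2 CPM in LZ S and 17.6, 29.1 and 23.5 CPM in LZ G2/M. Its values did not overlap between phases (1.60 ± 0.11, adjusted p = 1.8e-10).

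Genes of a resting state were mixed, beside 16.2% higher and 16.9% lower over all genes. Of 11 quiescence and CDK inhibitor genes 5 were higher and 2 lower in G1, the higher ones including Foxp1, a transcription factor of resting B cells, at 114 ± 3.67 CPM against 64.3 ± 2.57 (0.83 ± 0.087, adjusted p = 9.8e-08), and the antiproliferative Btg2 (0.83 ± 0.084) and Btg1 (0.67 ± 0.061). The lower ones were the CDK inhibitors Cdkn2c (-0.93 ± 0.11) and Cdkn2d. Ccnd2, a G1 cyclin, was the 1 member of the G1 cyclin list that was higher, at 10.7, 12.0 and 12.6 CPM in G1 (1.28, adjusted p = 0.0293), a call lost without mouse 2 (adjusted p = 0.182) or mouse 3 (adjusted p = 0.201) and with all clusters kept (adjusted p = 0.294). Its level was low, with 77 UMIs in LZ G1 beside 2042 of the G1 cyclin Ccnd3. Other genes above 50 CPM with large differences were the stress-induced Ddit4, at 73.5 ± 7.90 CPM in LZ G1 (1.26 ± 0.12, or 0.79 at an adjusted p of 0.135 with equal cell numbers), Ncf1, a subunit of the phagocyte oxidase (1.19 ± 0.12), and Pxdc1 (1.34 ± 0.16). Apoe, a lipid carrier, was 1.04 ± 0.082 higher within mice, but its level in G1 ran from 264 CPM in mouse 3 through 425 in mouse 2 to 682 in mouse 1, and with no block for the mouse it did not pass (adjusted p = 0.0696).

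Memory-linked genes were higher for 4 of 9 members tested and lower for 0, within the edge the memory score sets. Hhex, a transcription factor of memory precursors, was at 19.5, 19.9 and 24.8 CPM in LZ G1 and 7.72 ± 1.48 CPM in cycling LZ cells (1.54 ± 0.30, adjusted p = 2.9e-04). The chemokine receptor Ccr6 was at 5.65, 6.28 and 11.2 CPM and 1.51 ± 0.788 CPM (2.43 ± 0.48, adjusted p = 3.5e-04), and Gpr183, a guidance receptor, differed by 1.74 ± 0.43 (adjusted p = 0.00317). Values of the 2 groups did not overlap for Hhex or Ccr6. The deposited memory score had medians of 0.635 in LZ G1 and 0.510 in cycling LZ cells.

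The remaining lists read as follows, as members higher and lower of those tested, beside 16.2% higher and 16.9% lower over all genes. Actin cytoskeleton genes were 13 higher and 1 lower of 21, B cell transcription factors 12 and 2 of 24, immediate early genes 8 and 2 of 18, zone homing receptors 8 and 0 of 14, and germinal center identity genes 6 and 1 of 10, with Bcl6 0.57 ± 0.097 higher (adjusted p = 6.6e-05, and 0.0583 with cells thinned to 2000 UMIs). NF-kB subunits and targets were 6 and 0 of 19, BCL2 family genes 5 and 1 of 13, interferon-induced genes 4 and 0 of 12, plasma cell genes 4 and 2 of 8, dark zone genes 3 and 3 of 7, and genes of the mitochondrial genome 3 and 1 of 13. Energy metabolism leaned the other way, with glycolysis at 1 higher and 6 lower of 13 and nuclear respiratory chain genes at 2 higher and 11 lower of 20. Among the immediate early genes the lower ones were Fos (-0.87 ± 0.21) and the phosphatase gene Dusp1 (-1.22 ± 0.25), and Nr4a1, a reporter of antigen receptor signals, was the most different of the higher ones, at 9.41, 11.5 and 10.2 CPM against 2.57 ± 0.810 CPM (2.31, adjusted p = 0.00105).

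**Figure D2:**
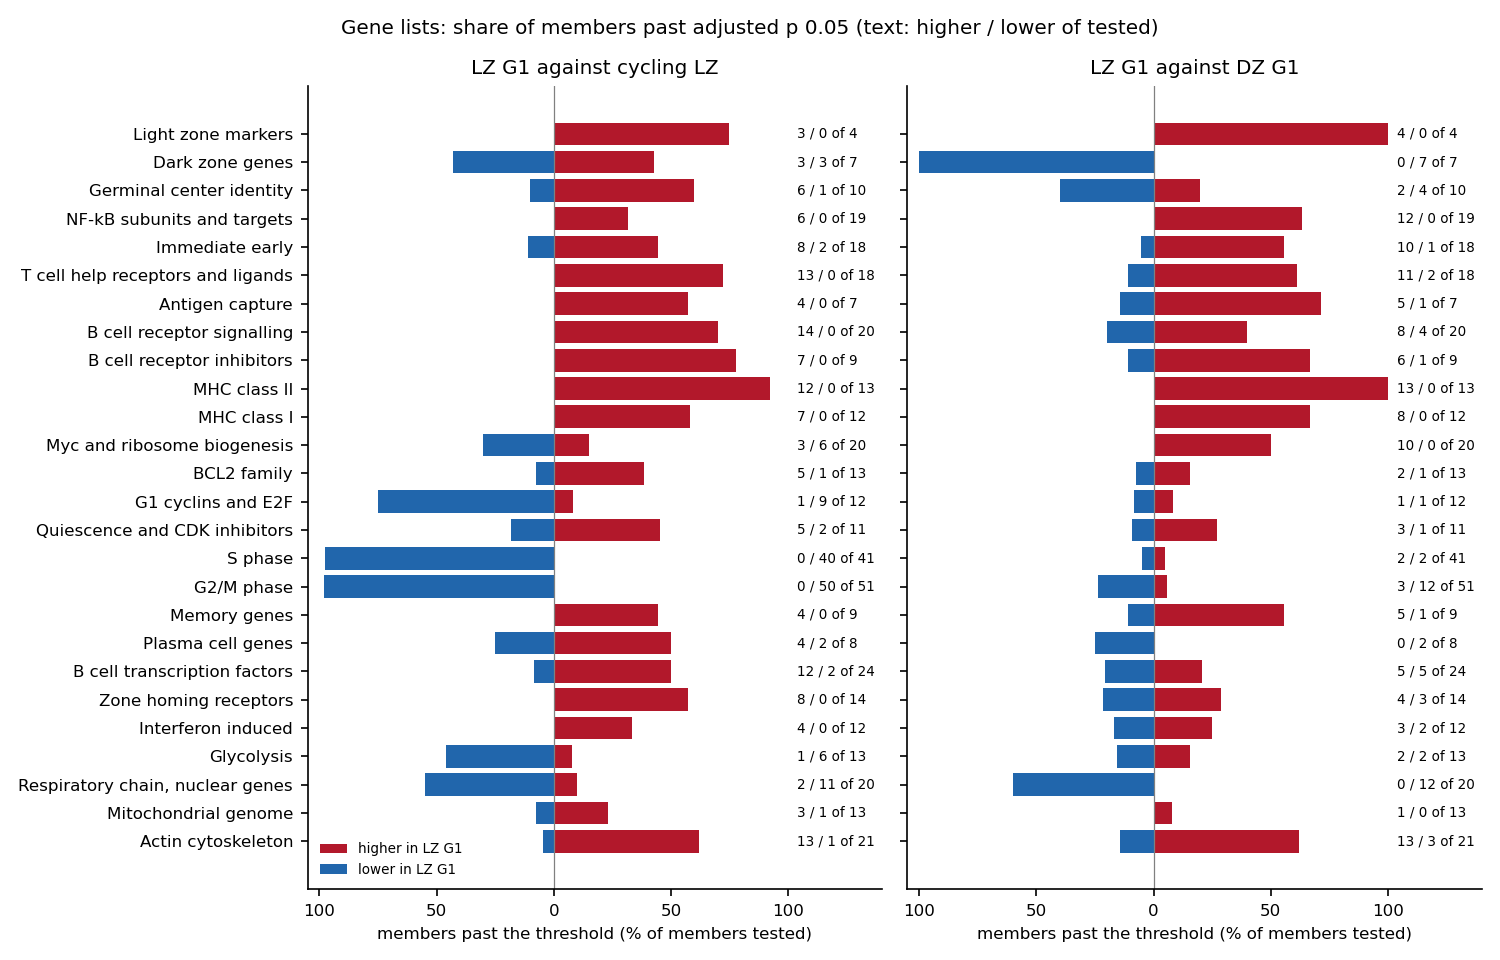
Share of each gene list's tested members past an adjusted p of 0.05 (horizontal axis, %), higher in LZ G1 to the right and lower to the left, with counts printed beside the bars; left panel against cycling LZ, right panel against DZ G1. MHC class II and T cell help lie to the right in both panels, the cycle lists lie to the left against cycling LZ, and NF-kB members reach 12 of 19 against DZ G1 but 6 of 19 against cycling LZ.

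The second comparison, LZ G1 against DZ G1, asked how the zones differ among cells of one phase. Here 785 genes (8.62% of 9105) were higher and 778 (8.54%) lower in LZ G1. Most members of the NF-kB, immediate early, MHC class II and T cell help lists were higher, and most nuclear respiratory chain genes were lower. The groups were close in S phase genes, with 2 of 41 higher and 2 lower, and Mki67 was at 124 ± 7.12 CPM in LZ G1 and 132 ± 10.3 CPM in DZ G1. They were less close in the G2/M list, with 3 of 51 higher and 12 lower, beside 8.54% lower over all genes. The clusters differed, since 174 of 1074 DZ G1 cells lay in cluster 3 and 81.8% in cluster 0. With G1 cells of cluster 0 only in both zones, 7 G2/M genes were lower, beside 644 of 8978 over all genes.

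NF-kB subunits and targets were higher in LZ G1 for 12 of 19 members and lower for 0, with a median log2 difference of 0.78 beside 0.010 over all genes. Nfkbid, which encodes an atypical inhibitor protein, was at 35.8, 30.4 and 32.2 CPM in LZ G1 and 6.02, 6.73 and 7.17 CPM in DZ G1. Each LZ mouse was above every DZ mouse (2.26 ± 0.20, adjusted p = 3.3e-08). The subunits of the noncanonical branch, Nfkb2 and Relb, were at 97.3, 72.2 and 79.4 CPM against 34.3, 26.9 and 37.0, and at 72.2, 76.4 and 65.8 against 21.1, 31.1 and 31.7 (1.33 ± 0.16, adjusted p = 1.9e-06, and 1.31 ± 0.13, adjusted p = 9.8e-08). Among the genes with a printed upstream sequence, Rel differed by 0.72 ± 0.10 (adjusted p = 2.7e-05) and Icam1 by 0.50 ± 0.13 (adjusted p = 0.0103). Nfkb1, which encodes p105, was at a difference of -0.06, and Tnfaip3, at 14.4 ± 4.22 and 7.78 ± 3.89 CPM, missed the threshold (0.86, adjusted p = 0.051). Nfkbia and Nfkbid were both highest in LZ G2/M, where Nfkbid reached 82.9, 36.6 and 57.5 CPM and exceeded G1 (adjusted p = 0.00156).

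Immediate early genes were higher in LZ G1 for 10 of 18 members and lower for 1. Egr1, an early response factor, was at 124, 114 and 143 CPM in LZ G1 and 42.7, 35.8 and 42.3 CPM in DZ G1 (1.66 ± 0.25, adjusted p = 5.8e-05). Egr2 was at 24.5, 16.2 and 23.4 CPM against 4.82, 2.52 and 5.66 (2.28 ± 0.36, adjusted p = 9.3e-05), and Ier2 and Junb differed by 1.58 ± 0.17 and 0.93 ± 0.11. With equal cell numbers in every sum Egr1 was at 0.60 (adjusted p = 0.638) and Ier2 at 0.97 (adjusted p = 0.245), and neither passed. The groups did not overlap for either Egr gene. Dusp5, a phosphatase of the nuclear ERK kinases, was the member that was lower (-0.84 ± 0.22, adjusted p = 0.0097), and Btg2 and Jund were at -0.019 and -0.050 with adjusted p of 0.924 and 0.781.

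Of the T cell help list 11 of 18 were higher and 2 lower. Cd40 stood at 120.5, 117 and 151 CPM in LZ G1 and 45.1, 44.6 and 49.0 CPM in DZ G1 (1.49 ± 0.12, adjusted p = 8.2e-09). The signalling receptor Slamf1 was at 194 ± 10.4 and 95.3 ± 1.33 CPM (1.02 ± 0.085, adjusted p = 1.4e-08), and Il2rg, the shared cytokine receptor chain, at 270 ± 15.5 and 132 ± 17.0 CPM (1.02 ± 0.083, adjusted p = 1.1e-08). The lower members were Slamf6 (-0.41 ± 0.069) and Icam2 (-0.39 ± 0.10), which like Slamf1 and Icam1 belong to adhesion and contact receptor families. Cd72 and the complement receptor Cr2 were 1.52 ± 0.15 and 1.09 ± 0.11 higher, though Cr2 did not pass with equal cell numbers (0.92, adjusted p = 0.125), and antigen capture genes were 5 higher and 1 lower of 7.

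All 13 MHC class II genes were higher in LZ G1, with a median of 0.65. H2-Aa was at 7303, 6904 and 6773 CPM in LZ G1 and 4534, 4215 and 4188 CPM in DZ G1 (0.70 ± 0.029, adjusted p = 5.7e-13). Ifi30, a thiol reductase that opens antigens for loading, differed most, at 982, 1005 and 966 CPM against 453, 384 and 380 CPM (1.29 ± 0.071, adjusted p = 3e-11). Ciita, the master activator of these genes, was at 166 ± 20.8 and 105 ± 7.15 CPM (0.66 ± 0.077, adjusted p = 1.9e-06). The smallest difference of the list was in H2-Ob (0.21 ± 0.050, adjusted p = 0.00589), whose partner H2-Oa differed by 0.92 ± 0.062. MHC class I genes were 8 higher and 0 lower of 12.

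**Figure D3:**
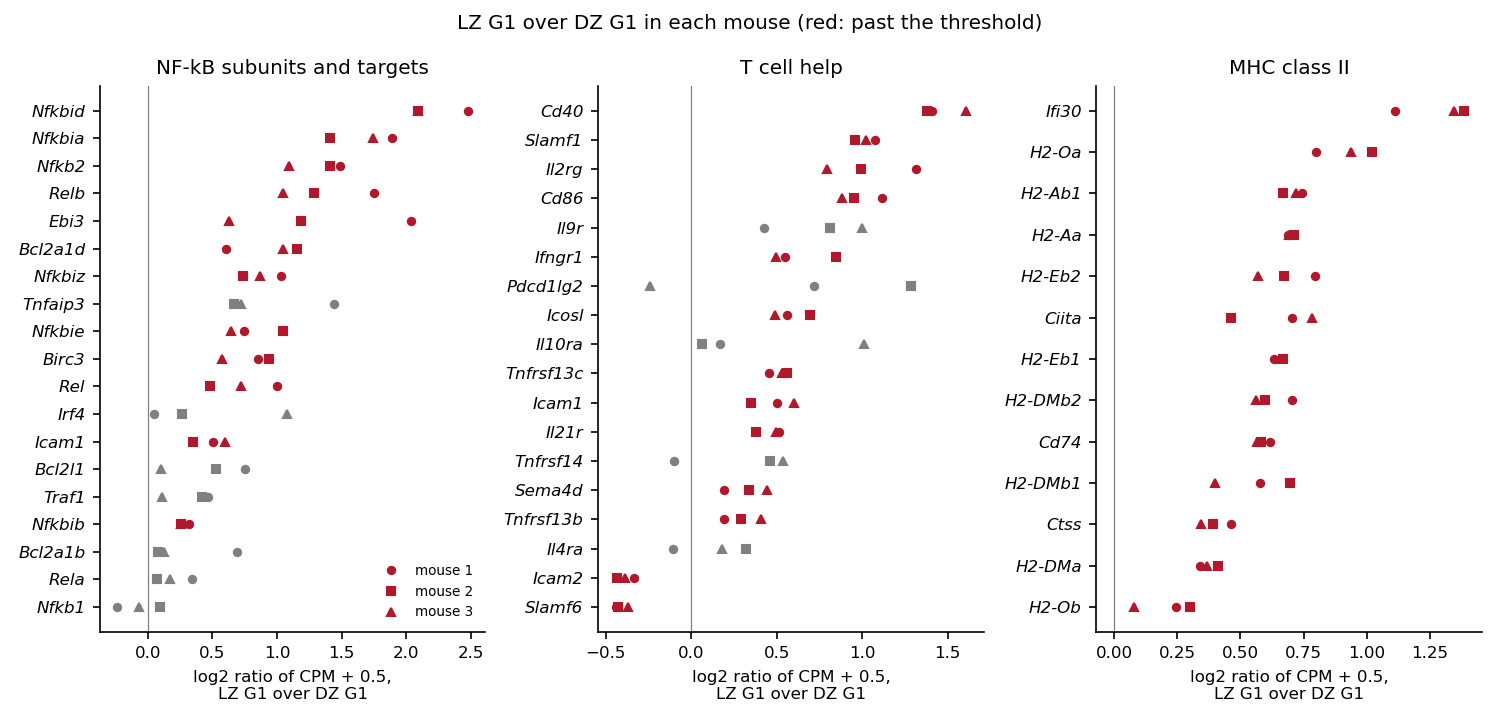
Log2 ratio of CPM + 0.5 in LZ G1 over DZ G1 within each mouse (horizontal axis) for the NF-kB, T cell help and MHC class II lists; each symbol is a mouse, red marks genes past the threshold in either direction and grey the others. Every MHC class II gene lies right of 0 in all 3 mice, and in the T cell help panel Icam2 and Slamf6 lie left of 0 in all 3.

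B cell receptor signalling divided by gene. Of 20 members 8 were higher and 4 lower, the higher ones including Pik3ap1 (0.72 ± 0.095) and Lat2 (0.67 ± 0.078), adaptors of the receptor, and the lower ones Cd79b, Blnk, Syk and Btk, at -0.31, -0.26 ± 0.049, -0.26 ± 0.058 and -0.21 ± 0.068. Cd79b, a signalling chain of the receptor itself, was at 2669, 2587 and 2478 CPM in LZ G1 and 3249, 3089 and 3241 CPM in DZ G1. With G1 cells of cluster 0 only, 4 were higher and 5 lower, beside 589 and 644 of 8978 over all genes. Inhibitors were 6 higher and 1 lower of 9, the lower one Dok3, an adaptor of inhibitory signals (-0.44 ± 0.084).

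Myc was higher in LZ G1 than in DZ G1, at 47.1, 29.8 and 44.8 CPM against 13.2, 14.7 and 13.6 CPM (1.52 ± 0.19, adjusted p = 3.9e-06). The groups did not overlap. Of the Myc and ribosome biogenesis list 10 of 20 were higher and 0 lower, among them the spermidine synthase gene Srm (0.76 ± 0.14) and the nucleolar gene Gnl3 (0.88 ± 0.22). Cells with a Myc transcript were few in all 3 groups. At 2000 UMIs per cell they made up 7.59%, 3.57% and 4.71% of LZ G1, 7.54%, 7.52% and 8.90% of cycling LZ and 3.0%, 3.3% and 2.3% of DZ G1 cells; without thinning the means were 11.6%, 21.2% and 7.09%. The exact two-sided sign-flip permutation test gave p = 0.5 against cycling LZ and p = 0.25, the smallest 3 mice allow, against DZ G1.

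Ccnd2 was at 10.7, 12.0 and 12.6 CPM in LZ G1 and 1.20, 1.26 and 0.377 CPM in DZ G1 (3.64 ± 0.62, adjusted p = 1.9e-04). Its relative Ccnd3, on the dark zone list, was lower in LZ G1, and of the G1 cyclin and E2F list as a whole 1 of 12 was higher and 1 lower. Over all genes 8.62% were higher and 8.54% lower, so a count of 1 or 2 in lists this short is near those shares. Quiescence and CDK inhibitor genes were 3 higher and 1 lower of 11, the lower one Foxp1, at 116, 109 and 115 CPM in LZ G1 and 190, 185 and 195 CPM in DZ G1 (-0.74 ± 0.081, adjusted p = 7e-07), the opposite side from its difference with cycling LZ cells. Memory-linked genes were 5 higher and 1 lower of 9. Ccr6 had 54 UMIs in LZ G1 and 3 in DZ G1, a ratio of 18 (exact binomial 95% interval 5.85 to 90.2, counting error only), and Hhex was at 21.4 ± 2.95 and 5.17 ± 2.66 CPM (2.08 ± 0.32, adjusted p = 6.5e-05). The lower one was Cd44, an adhesion receptor (-0.46 ± 0.14, adjusted p = 0.0315). In the BCL2 family 2 of 13 were higher and 1 lower: Bid (0.61 ± 0.069), Bcl2a1d (0.98), whose reads a near-identical copy may share, and the death-promoting Bcl2l11, at 13.2, 14.1 and 13.2 CPM in LZ G1 and 22.3, 26.5 and 29.4 CPM in DZ G1 (-0.97 ± 0.17, adjusted p = 3.1e-04).

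The largest differences above 50 CPM outside these lists were again Il4i1, at 81.9, 75.7 and 78.8 CPM in DZ G1 against at least 412 CPM in LZ G1 (2.72 ± 0.11, adjusted p = 3e-13), and Snn, which encodes stannin, at 55.3 ± 6.33 and 13.1 ± 1.40 CPM (2.08 ± 0.16, adjusted p = 4.4e-09). On the other side stood Rgcc, a cell cycle regulator, at 37.0, 51.8 and 42.4 CPM in LZ G1 and 176, 180 and 159 CPM in DZ G1 (-1.97 ± 0.098, adjusted p = 4.7e-12), and Pafah1b3, at 179, 171 and 153 against 535, 498 and 482 CPM (-1.60 ± 0.071, adjusted p = 5.7e-13). None of the 4 genes overlapped between the groups, but they were picked for large folds in one direction in all 3 mice. Arl5c (-1.55), Myl4 (-1.53), Eif2ak3 (-1.21) and Lipc (-1.20) were lower as well, though with equal cell numbers Eif2ak3 (adjusted p = 0.208) and Lipc (adjusted p = 0.0672) did not pass. Ccnb2, a mitotic cyclin of the G2/M list, was lower with a log2 difference of -1.67, which was -0.62 with cluster 0 only (adjusted p = 0.00373).

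The other lists were more even, beside 8.62% higher and 8.54% lower over all genes. Nuclear respiratory chain genes were 12 lower and 0 higher of 20, each by little, as in Atp5b at 684 ± 11.3 and 888 ± 13.7 CPM (-0.38 ± 0.038, adjusted p = 2.5e-07), and 6 passed with cluster 0 only, 2 without G1 cells holding Mki67 or Top2a. Over all genes 644 of 8978 and 307 of 8016 were lower in those settings. Genes of the mitochondrial genome were 1 higher and 0 lower of 13, and glycolysis genes 2 and 2 of 13. Actin cytoskeleton genes were 13 higher and 3 lower of 21, the higher ones including the related membrane-binding genes Marcksl1 (1.25) and Marcks (2.17 ± 0.55, at a low level of 7.41 ± 3.61 CPM), and the lower ones including Vim (-0.62 ± 0.090). B cell transcription factors were 5 and 5 of 24, with Bcl11a (0.65 ± 0.071) and Batf (1.04 ± 0.21) higher and Pou2af1 (-0.61 ± 0.049) and Tcf3 (-0.56 ± 0.061) lower. Zone homing receptors were 4 and 3 of 14, interferon-induced genes 3 and 2 of 12, germinal center identity genes 2 and 4 of 10, and plasma cell genes 0 and 2 of 8, the latter being Jchain (-0.78 ± 0.047) and Mzb1 (-0.56 ± 0.034). All 7 dark zone genes were lower, with a median of -0.69.

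The third comparison tested whether a zone difference in G1 departed from the average zone difference in S and G2/M. For 106 genes (1.16% of 9105) the LZ value relative to DZ was higher in G1 than in cycling cells, and for 24 (0.264%) it was lower. At an unadjusted p under 0.05 there were 898. The light zone markers were not among them: the departure was -0.069 for Cd83, 0.012 for Cd86, 0.22 for Fcer2a and -0.20 for Nfkbia, with adjusted p from 0.669 to 1, so their zone difference in G1 was not distinguished from that in cycling cells. The same held for Il4i1 (0.37, adjusted p = 0.304), H2-Aa (0.043, adjusted p = 0.754) and Myc (-0.21, adjusted p = 0.836). No member of the T cell help (18 tested), MHC class II (13), B cell receptor signalling (20), inhibitor (9) or Myc and biogenesis (20) lists passed. Only 1.16% and 0.264% of all genes passed, so lists this short would hold few calls or none at those shares. Whether the G1 difference of these lists from cycling cells differed between LZ and DZ was not resolved.

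Stmn1, which destabilises microtubules, was at 206, 220 and 210 CPM in LZ G1 and 377, 403 and 416 CPM in DZ G1, while cycling cells of both zones held 1252 CPM or more (departure -0.86 ± 0.067, adjusted p = 1.4e-07). Hmgn2, a chromatin protein, was at 524, 579 and 527 against 1055, 1056 and 1019 CPM (-0.76 ± 0.048, adjusted p = 5.2e-09). With cluster 0 only in G1 the departures were -0.49 and -0.44, still past the threshold, but those of Cks1b and Ccnb2, at -0.81 and -0.69 in all G1 cells, became 0.013 and 0.33 (adjusted p = 1 and 0.515). Pim1, a survival kinase, kept its departure there (-0.64 ± 0.11 in all G1 cells, -0.73 with cluster 0 only), but did not pass without mouse 2 (-0.62, adjusted p = 0.109). On the positive side Marcksl1 was at 348, 304 and 312 CPM in LZ G1 and 135, 134 and 135 in DZ G1, with smaller zone gaps in S and G2/M (0.68 ± 0.090, adjusted p = 1.3e-04). The glycolytic gene Aldoa was at 841 ± 5.70 and 659 ± 28.9 CPM in G1 but lower in LZ than in DZ cells of S and G2/M in each mouse (0.49 ± 0.062, adjusted p = 1e-04). The noncoding RNA Malat1 was at 3791 ± 127 and 2502 ± 152 CPM (0.37, adjusted p = 0.00169), and did not pass with cluster 0 only (0.21, adjusted p = 0.143).

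Ribosomal protein genes, a group chosen after its values were seen, made up 68 of the 106. All 78 genes of the group departed upward, 68 of them past the threshold, with a median of 0.25 beside 0.033 over all genes. In G1 their zone difference was near 0, with a median of 0.068, 30 higher and 0 lower in LZ, while LZ was lower than DZ for 53 in S (median -0.13) and for 74 in G2/M (median -0.20). They took 22.8%, 22.3% and 22.2% of UMIs in LZ G1 and 22.3%, 21.6% and 22.1% in DZ G1. In LZ S the shares were 20.6%, 20.8% and 21.1%, and in LZ G2/M 18.6%, 17.6% and 19.4%, against 22.4%, 22.2% and 22.6% in DZ S and 20.5%, 20.3% and 20.8% in DZ G2/M. LZ G1 was thus above every LZ S and LZ G2/M value, and the lowest shares were in LZ G2/M. The count past the threshold was 46 with cluster 0 only, 25 without mouse 2, and 1 with equal cell numbers in every sum, where the median was still 0.22.

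**Figure D4:**
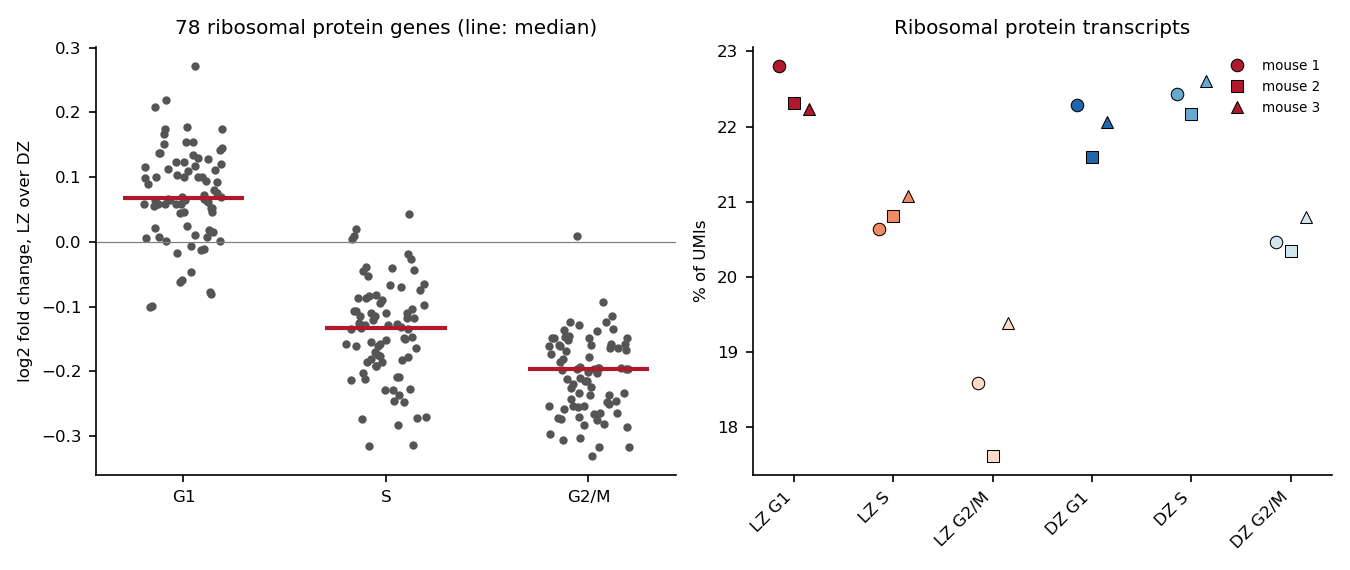
Left, log2 fold change of LZ over DZ for each of 78 ribosomal protein genes (points) in G1, S and G2/M, with the median as a line; right, the share of UMIs (%, axis not from 0) these genes took in each mouse by zone and phase. The medians are 0.068, -0.13 and -0.20, and the LZ G2/M mice have the lowest shares.

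Depth per cell and the antibody genes are not named in the rule, but whether the authors' calls drew on antibody genes is not given in the sources. The median cell held 5382, 5436 and 5306 UMIs in LZ G1, 7959, 8869 and 9355 in cycling LZ (average of the phases) and 5878, 6042 and 5650 in DZ G1. LZ G1 was the lowest in each mouse, with mean differences of -3353 UMIs against cycling LZ and -482 against DZ G1 (exact sign-flip permutation p = 0.25 for both, two-sided and the smallest possible). All 12 comparisons of isotype and light chain shares, a separate family, had p of 0.25 or more by the same test. Fewer UMIs per cell and less RNA per cell cannot be told apart here.

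The lambda light chain, common among antibodies to NP, led in 60.1%, 60.8% and 54.6% of LZ G1 cells with a call. In cycling LZ cells it led in 50.5%, 54.2% and 42.4%, lower in each mouse by 9.49 ± 2.82 percentage points on average (SD of the difference, n = 3), and in DZ G1 it led in 64.3%, 63.4% and 58.0%, so that LZ G1 was lower in each mouse (-3.41 ± 0.751 points). Without G1 cells holding Mki67 or Top2a that difference was -0.243 points (exact sign-flip permutation p = 1). Among heavy chains Ighg1 led in 40.8%, 31.1% and 22.7% of LZ G1 cells, 7.89 ± 1.45 points above DZ G1 and 4.26 ± 3.27 above cycling LZ in all 3 mice. Ighg2b led in 2.69%, 11.5% and 12.6%, below DZ G1 in all 3 (-3.66 ± 1.67 points, and -6.71 points without G1 cells holding Mki67 or Top2a), and Ighm in 54.2%, 50.4% and 57.7%, with no common direction. Within LZ G1 the mice spanned more than these mean differences in both Ighg1 and Ighg2b.

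**Figure D5:**
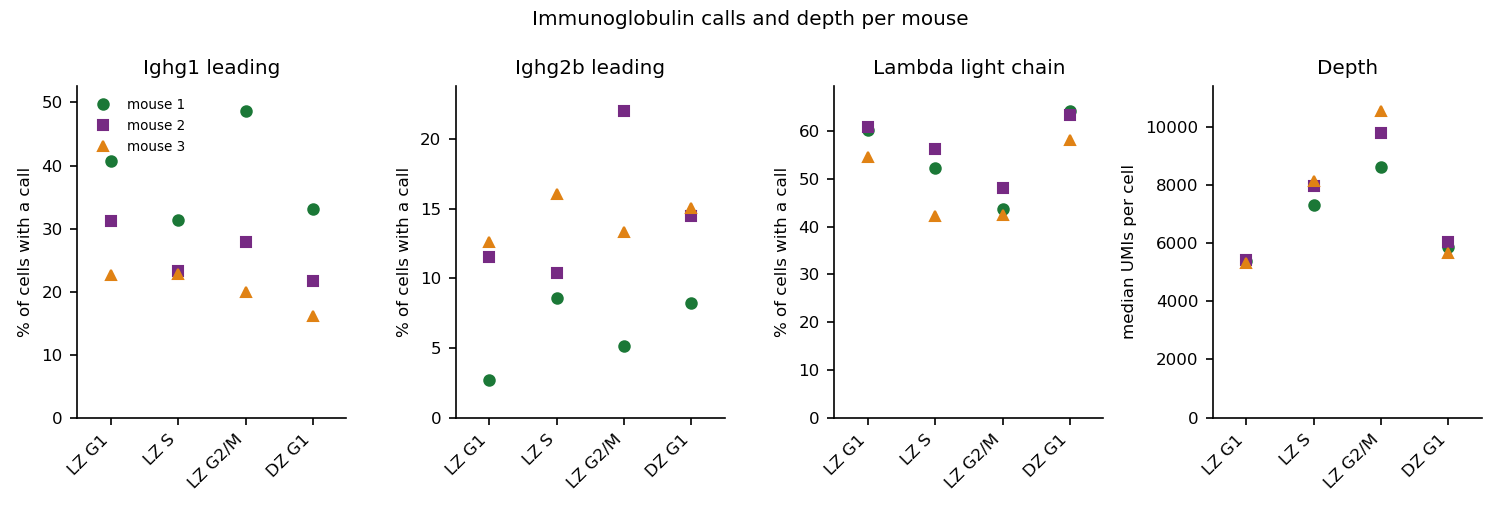
Share of cells led by Ighg1, by Ighg2b and by lambda light chain (vertical axes, % of cells with a call) and median UMIs per cell, in each of 3 mice (symbols) for LZ G1, LZ S, LZ G2/M and DZ G1. Mouse 1 lies apart in Ighg1 (40.8% in LZ G1) and Ighg2b (2.69%), and lambda is lower in both cycling LZ groups than in either G1 group of the same mouse.

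Among themselves the members were alike across mice. Log expression of the 3 LZ G1 sums correlated at 0.979 to 0.982 across genes, which are not independent replicates. The spread between mice was wider for a few genes: Apoe ran from 264 to 682 CPM, Irf1, an interferon-induced factor, from 61.1 to 120 CPM with mouse 2 highest, Ier2 from 40.8 to 74.1 CPM, and the class I gene H2-K1 was at 1132 ± 175 CPM. Those differences between mice were also present in the DZ G1 cells for Apoe (676, 326 and 245 CPM) and Irf1 (49.4, 69.0 and 29.8 CPM), which share the same order of mice for Apoe and the same highest mouse for Irf1.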

How the data were processed

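Raw UMI counts per gene and cell and a table of cell labels were deposited by the authors as 1 pooled matrix of 6000 cells and 13886 genes, and matrix sums equalled the deposited totals in all 6000 cells. Cell Ranger, Seurat, mm10 and GRCm38 are named, without versions, per the submitters' processing notes; cell filters and doublet handling are not stated in the sources. The zone, memory, activation and plasma cell score of each cell, its phase, cluster, state and mouse were computed or assigned by the authors.

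Counts were summed per mouse for 6 groups (LZ and DZ in G1, S and G2/M, without clusters 4, 5 and 7), giving 18 sums of at least 39 cells, with 1614373, 1913431 and 2923414 UMIs of tested genes for LZ G1. They were fitted with edgeR 4.0.16 (glmQLFit and glmQLFTest, TMM, filterByExpr, mouse as a block, Benjamini-Hochberg, threshold 0.05). The 3 mice are the replicates. CPM use TMM factors. Same-numbered sums are the same animal, and their deviations from group means correlated with a median r of 0.452 over 45 pairs (lowest 0.163), against -0.234 over 90 pairs of different mice. The negative value follows largely from centring each group on the mean of its 3 mice, so it is no separate check of the pairing. Errors of log2 fold changes are SE from the fit. DESeq2 1.42.0 was an alternative. The fit was tested on simulated data.

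Shares per mouse used exact sign-flip permutation tests, with cells thinned to 2000 UMIs for shares of cells with a transcript. The isotype and light chain of a cell were those of its most abundant constant transcript, and an isotype was called in 84.8% of LZ G1 cells.

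Named genes were the 10 with the largest fold in each direction past the threshold, with 50 CPM or more in the group with the higher level and one direction in the 3 mice, plus 20 genes of interest and up to 4 members of each of 26 lists in each direction. Predicted genes, immunoglobulin segments and, against cycling LZ, cycle lists were left out, and some genes that met the rule are not reported here. The members, lists and tests were chosen with earlier results of these data known.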

Additional observations from a re-analysis of the deposited data

Results flagged for a closer look

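The results below are those in which the zone difference, LZ minus DZ on the log2 scale, differed between G1 and the average of S and G2/M by edgeR's interaction test. Such a departure was found for 106 genes in the positive and 24 in the negative direction.

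Positive departures of genes that reached 50 CPM in a group were 0.83 for Haus5, 0.71 for Gins2, 0.68 for Marcksl1, 0.49 for Smc4, 0.49 for Aldoa, 0.46 for Lrmp, 0.43 for Cks2, 0.37 for Malat1 and 0.36 for Rpl36a. Negative ones were -0.86 for Stmn1, -0.81 for Cks1b, -0.76 for Knstrn, -0.76 for Hmgn2, -0.7 for Ndfip2, -0.69 for Ccnb2, -0.68 for Spc24, -0.66 for Ube2c, -0.64 for Pim1 and -0.55 for Fdx1l. Several of these genes serve DNA replication or mitosis: Gins2 is a subunit of the replicative helicase, Smc4 of condensin, Haus5 of the augmin complex, and Cks1b, Cks2, Ccnb2 and Ube2c act on cyclin-dependent kinases or their destruction. Of them Gins2, Smc4, Haus5 and Cks2 departed upward and Cks1b, Ccnb2 and Ube2c downward. The share of G1 cells in cluster 0 moved with zone, 99.1% in LZ and 81.8% in DZ. With cluster 0 only, the departures of Cks1b, Ccnb2, Knstrn, Spc24, Ube2c, Gins2, Malat1 and Fdx1l did not pass, and those of the other 11 genes did.

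Without mouse 2 the adjusted p was 0.354 for Cks2, 0.0518 for Malat1, 0.0518 for Rpl36a, 0.0993 for Ccnb2 and 0.109 for Pim1, and without mouse 3 it was 0.0695 for Lrmp. For Ndfip2 it was 0.168 without mouse 1 and 0.419 without mouse 3. Whichever mouse was left out, it was 0.0719 to 0.479 for Haus5, 0.0993 to 0.738 for Gins2, 0.0687 to 0.222 for Knstrn, 0.0809 to 0.183 for Spc24 and 0.156 to 0.62 for Fdx1l. Stmn1, Hmgn2, Cks1b, Ube2c, Marcksl1, Aldoa and Smc4 passed with each mouse left out.

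Other settings ended more of these calls. With cells thinned to 2000 UMIs the adjusted p was 0.531 for Ube2c and 0.0842 for Smc4, and Haus5, Gins2, Cks2, Knstrn, Ndfip2, Ccnb2, Spc24 and Fdx1l did not pass either. Without G1 cells holding Mki67 or Top2a it was 0.108 for Ube2c, 0.242 for Cks2 and 0.186 for Malat1, and Haus5, Gins2, Knstrn, Ndfip2, Ccnb2, Spc24 and Fdx1l did not pass either. With equal cell numbers, Stmn1 was the 1 gene named here that passed, and the nearest others were Hmgn2 (adjusted p = 0.072) and Marcksl1 (adjusted p = 0.0775).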

How the results depend on the processing

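Counts of genes past the threshold are given for settings that moved them by over 1.5 times, and as a range, whether or not it moved that far, with 1 mouse left out. Against cycling LZ, 701 genes were higher and 707 lower with cells thinned to 2000 UMIs, 362 and 481 with equal cell numbers, and 939 to 1221 and 1108 to 1387 with 1 mouse left out. Against DZ G1 the counts were 470 and 307 without G1 cells holding Mki67 or Top2a, 414 and 279 with thinning, 127 and 93 with equal cell numbers, and 459 to 639 and 408 to 614 with 1 mouse left out. For the zone difference in G1 against cycling cells, the positive count was 68 with cluster 0 only, 1 with equal cell numbers and 39 to 98 with 1 mouse left out. The negative count was 51 by the DESeq2 Wald test, 11 without G1 cells holding Mki67 or Top2a, 12 with thinning, 1 with equal cell numbers, 42 with immunoglobulin genes left out and 14 to 18 with 1 mouse left out. Without the replicate block (pairing by mouse), the counts were 1418 and 1514, 653 and 678, and 80 and 19. The 2 settings with cells near the zone boundary left out or cluster 0 only were chosen after seeing the data. With cells near the boundary left out, LZ G2/M lacked a sum for mouse 1 (19 cells).

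Of genes called and named, 20 of 31, 20 of 28 and 1 of 20 kept direction and side of the threshold in all 15 settings, and 23, 27 and 4 in all but equal cell numbers, where sums shrank to 39 cells. Directions that turned, in log2 against cycling LZ, were Nfkbia (0.157) and Myc (0.664) with equal cell numbers. Cxcr4 turned with cells near the boundary left out (0.070), thinning (0.279) and without mouse 2 (0.068, -0.196 without mouse 3), and Nfkb1 with thinning (-0.185). Cr2, near 0, turned without G1 cells holding Mki67 or Top2a (-0.002), near the boundary (-0.013), with thinning (-0.007), equal cell numbers (-0.155) and without mouse 1 (-0.029) or mouse 3 (-0.041, 0.139 without mouse 2). Against DZ G1, Mcl1 (0.189 and 0.011) and Nfkb1 (0.072 and 0.008) turned without G1 cells holding Mki67 or Top2a and without mouse 1, with lowest values of -0.202 (without mouse 3) and -0.142 (without mouse 2). The departures of Cks1b (0.013) and Ccnb2 (0.325) turned with cluster 0 only, and those of Spc24 (0.047) and Fdx1l (0.115) with equal cell numbers. Mean share differences in percentage points turned for Ighm (0.767) and Ighg2c (0.0968) against DZ G1 without G1 cells holding Mki67 or Top2a, and for Ighg3 against cycling LZ without mouse 3 (-0.955, 0.914 without mouse 2) or with at least 2 UMIs required (-0.251) and against DZ G1 without mouse 1 (0.155, -1.14 without mouse 3). The cause was not tested; with thinning, equal numbers or a mouse left out, fewer counts or samples entered.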
